A study of Xenopus laevis with 3 samples.

Results

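The genes described here code for digestive enzymes of the exocrine pancreas and for a folding enzyme of the same cells, measured in heads of Xenopus laevis tadpoles. They are the serine protease genes cela1.1.S, ctrc.L and ctrl.L, the lipase genes cel.2.S and pnlip.L, and the disulfide isomerase gene pdia2.L. The 6 genes are those of 11303 measured genes whose annotated symbol is on that list. They were chosen by their intensities on these 3 arrays, so their levels are given as a description and support no test. Each is measured by 1 probe set of 32635, and all 6 were found. Suffixes .L and .S mark the long and short chromosomes of the subgenomes of X. laevis, which keeps many genes as a pair of homeologs.

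The study asked how the protein kinase MLTK acts in cartilage formation. Morpholino was injected early in cleavage, 10 ng into the animal side of every cell, and embryos were kept at 22 °C. Heads were cut off 72 hours after fertilisation, at about stage 41. The 3 groups were CoMO, xMLTK-MO and xSox6-MO, each with 1 array, and CoMO served as the control here, although the labels do not spell out the name. The injection was not aimed at one tissue, the spread of the morpholinos was not measured here, and the sources used here give neither the number of heads pooled nor whether the groups shared a clutch. Depletion of the proteins was not measured on the arrays, and the mRNAs of MLTK (map3k20) and sox6 had 0 annotated probe sets.

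Acinar cells of the exocrine pancreas make digestive enzymes, most of them as inactive zymogens, and release them into the gut, where proteases and lipases break down food. The pancreas arises from buds of the foregut behind the head, and in the tadpole it lies beside the stomach, liver and anterior gut. In Xenopus the pancreatic disulfide isomerase, also known as XPDIp, is an early marker of the organ. In bulk heads, a different number of pancreatic cells and a different amount of RNA per cell cannot be told apart.

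All values are intensities after the submitters' RMA, which forces the arrays to nearly one distribution, so a value says how bright a probe set was relative to the others of the same array. The arrays had medians of 92.7 in CoMO, 91.1 in xMLTK-MO and 89.8 in xSox6-MO. The highest of 23 negative control probe sets, which match no X. laevis transcript, lay at 23.3, 26.2 and 21.0 in that order, and the median negative control at 7.23, 7.39 and 7.49. A gene not brighter than the highest control on an array is called not above the controls there, and a fold against it is a lower bound. With 1 array per group no difference can be set against a spread between samples, no test was run, and the number of arrays limits the precision.

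All 6 genes were dimmest on the CoMO array. These arrays chose the genes, and the share of all genes dimmest there is not given, so nothing is read from that count. For 5 of them the order was CoMO, xSox6-MO, xMLTK-MO from dim to bright, and these 5 were above the controls on every array. The lipase gene pnlip.L took the order CoMO, xMLTK-MO, xSox6-MO and was not above the controls in CoMO. Over the 5 genes above the controls everywhere, xMLTK-MO was 7.12-fold to 15.0-fold over CoMO, and xSox6-MO 1.73-fold to 2.84-fold over CoMO.

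Elastase 1 cleaves proteins after small residues. Its gene cela1.1.S had an intensity of 89.6 in CoMO, 245 in xSox6-MO and 1342 in xMLTK-MO, which on the log2 scale is 6.48, 7.93 and 10.39. The highest control lay at 4.54 in CoMO, so even the dimmest value was 1.94 above it on that scale. The log2 difference from CoMO was 3.91 in xMLTK-MO and 1.45 in xSox6-MO.

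Chymotrypsin C, which in humans also controls the activation and breakdown of trypsinogen, is encoded by ctrc.L. Its intensity was 136 in CoMO, 269 in xSox6-MO and 1298 in xMLTK-MO. The xMLTK-MO array stood apart from the other two, which differed from each other by 0.98 on the log2 scale, a step just under 2-fold. The chymotrypsin-like protease gene ctrl.L had intensities of 131 in CoMO, 226 in xSox6-MO and 932 in xMLTK-MO. It showed the smallest log2 differences from CoMO among these 5 genes, 2.83 in xMLTK-MO and 0.79 in xSox6-MO.

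The lipase genes did not share an order. Bile salt-activated lipase, which splits cholesterol esters and other lipids, is encoded by cel.2.S, with an intensity of 49.4 in CoMO, 121 in xSox6-MO and 385 in xMLTK-MO. Its log2 differences from CoMO were 2.96 in xMLTK-MO and 1.30 in xSox6-MO, between those of the protease genes. Pancreatic lipase, which splits triglycerides in the gut, is encoded by pnlip.L. Its intensity was 11.3 in CoMO, 48.4 in xMLTK-MO and 72.3 in xSox6-MO. Against the CoMO control of 23.3, this makes it at least 2.08-fold higher in xMLTK-MO and at least 3.10-fold higher in xSox6-MO. It was the one gene of the 6 that was brighter in xSox6-MO than in xMLTK-MO, by 1.49-fold, and on both arrays it lay within 1.78 of the highest control on the log2 scale. Its probe set is of the type that Affymetrix marks as shared by several transcripts of a gene.

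The disulfide isomerase gene pdia2.L, whose protein helps secreted enzymes fold in the endoplasmic reticulum, had an intensity of 84.4 in CoMO, 240 in xSox6-MO and 791 in xMLTK-MO. Its log2 differences from CoMO were 3.23 in xMLTK-MO and 1.51 in xSox6-MO. Of the 5 genes above the controls everywhere, it had the largest step from CoMO to xSox6-MO.

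**Figure D1:**
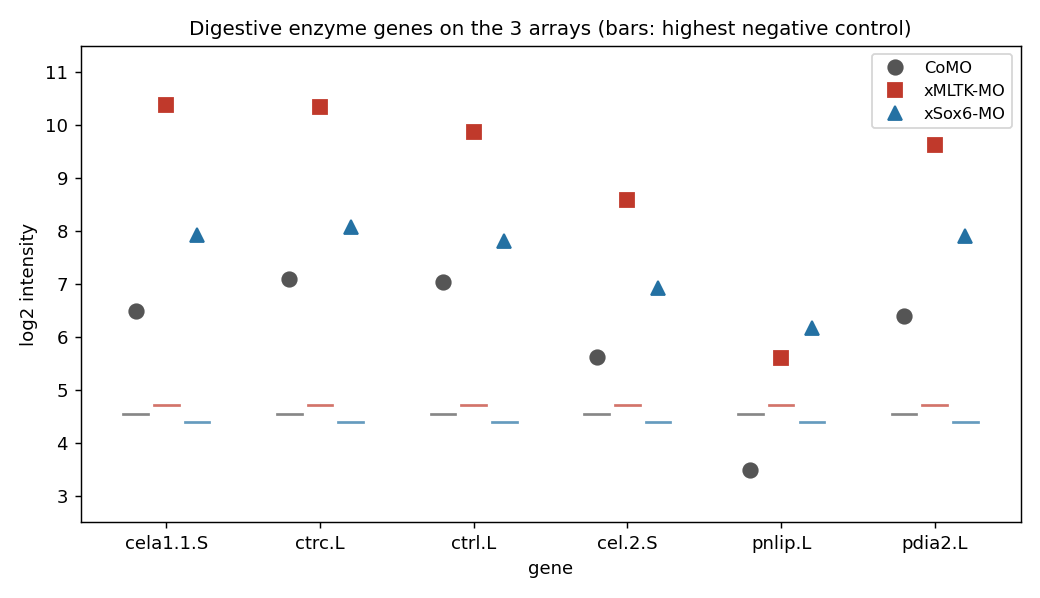
Log2 intensity (vertical axis) of the 6 genes (horizontal axis) on the CoMO, xMLTK-MO and xSox6-MO arrays, 1 point per array, with a short bar at the highest negative control of the same array. In 5 genes the xMLTK-MO square lies highest and the CoMO circle lowest, while pnlip.L lies near the bars and has its CoMO value below them.

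The scale of these differences can be read against all genes. A mean log2 intensity of at least 6.51, which is the probe set median, was reached by 7258 genes, among them 5 of the 6 (pnlip.L was dimmer). In xMLTK-MO 1.28% of the 7258 genes were at least 2-fold higher than in CoMO, and so were 5 of the 5. In xSox6-MO 0.978% were, and so were 3 of the 5, namely cela1.1.S, cel.2.S and pdia2.L. At least 2-fold lower than in CoMO were 0 of the 5 on either array, against 0.785% of the 7258 genes in xMLTK-MO and 1.06% in xSox6-MO. Because these contrasts chose the genes, nothing is read from the counts. In xMLTK-MO 93 genes were at least 2-fold higher than in CoMO and 57 lower, and in xSox6-MO 71 were higher and 77 lower. Centred on the hybridisation controls, labelled transcripts added before hybridisation, the splits became 127 to 38 and 122 to 48, and centred on the poly-A controls, transcripts added to the RNA before labelling, 199 to 21 and 416 to 20. These centrings set the median log2 level of the controls equal on the arrays. They add 0.10 and 0.26 to every log2 difference of xMLTK-MO from CoMO, and 0.18 and 0.48 to those of xSox6-MO. Taken probe set by probe set, the median difference of the poly-A controls from CoMO was -0.27 in xMLTK-MO and -0.35 in xSox6-MO. The size of the shift, and so the splits, thus depend on how the controls are summarised.

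The pair of morphant arrays can be compared without CoMO. Intensities on these arrays also chose the genes, so nothing is read from the counts and ranks of this pair. The protease genes had the largest log2 differences, 2.46 for cela1.1.S, 2.27 for ctrc.L and 2.04 for ctrl.L, higher in xMLTK-MO than in xSox6-MO. pdia2.L followed with 1.72 and cel.2.S with 1.66, whereas pnlip.L had -0.58. At least 2-fold higher in xMLTK-MO than in xSox6-MO were 0.496% of the 7258 genes and 5 of the 5, and at least 2-fold lower 0.22% and 0 of the 5. Only 1 of the 7258 genes had a larger difference than cela1.1.S. Centring on the poly-A controls takes 0.22 from each of these differences, and centring on the hybridisation controls 0.08, and the signs of the 6 genes stayed as they were. Probe set by probe set, the median difference between the morphants was 0.08 for the poly-A and 0.03 for the hybridisation controls.

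The order CoMO, xSox6-MO, xMLTK-MO from dim to bright was found in 15.7% of the 7258 genes. With xMLTK-MO also at least 2-fold over xSox6-MO it was found in 0.207%, which is 15 genes, 5 of them those described here. The others included the chymotrypsinogen gene ctrb1.L, the immediate early gene fos.S and the clusterin gene clu.L. The 5 genes were chosen by their intensities on the arrays that set this order, so nothing is read from their share.

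**Figure D2:**
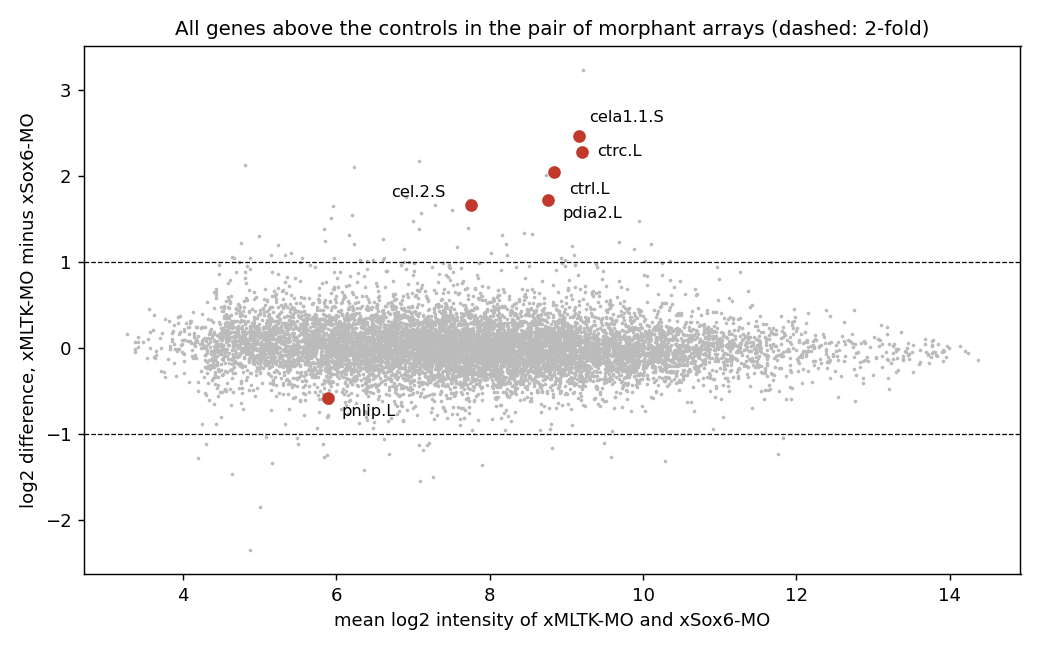
Log2 difference of xMLTK-MO minus xSox6-MO (vertical axis) against the mean log2 intensity of both arrays (horizontal axis) for all genes above the controls on at least 1 of them, with the 6 genes in red and dashed lines at 2-fold. cela1.1.S, ctrc.L, ctrl.L, pdia2.L and cel.2.S lie above the upper line, and pnlip.L at -0.58 lies between the lines.

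Other genes of the exocrine pancreas were then taken from a list of zymogens, lipases, amylases, nucleases and granule proteins. Beside the 6 genes, 25 of its genes were measured. Of these, 16 were not above the controls on any array, among them those of carboxypeptidase B (cpb1.S), amylase (amy2a.L and amy2b.S), elastase 2 (cela2a.L) and elastase 3 (cela3a.S and cela3b.L). Of the 9 that were above the controls in CoMO or xMLTK-MO, 3 were at least 2-fold higher in xMLTK-MO and 0 at least 2-fold lower, where 1.57% of 9822 genes were higher and 0.876% lower under the same rule. Of the 3, cpa1.L and serpini2.L were not above the controls in CoMO, so they entered the 9 only through the array where they were bright. The median log2 difference of the 9 was 0.29, or 0.17 with values raised to the controls, against -0.02 for the 9822 genes. For xSox6-MO 8 genes could be compared, 1 was at least 2-fold higher (0 with values raised to the controls, and 1.19% of 9899 genes), and the median was 0.03 (-0.01 with values raised to the controls) against -0.02. None was at least 2-fold lower there, where 1.11% of the 9899 genes were. The 1 higher gene, serpini2.L, entered that pair only through xSox6-MO. Between the morphants 3 of 8 were at least 2-fold higher in xMLTK-MO and 0 lower, against 0.619% and 0.284% of 9853 genes. Of these 3, cpa1.L entered only through xMLTK-MO.

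The 3 genes were ctrb1.L, cpa1.L and serpini2.L. Chymotrypsinogen B, a major pancreatic protease precursor, is encoded by ctrb1.L, which has 2 probe sets. One had intensities of 449 in CoMO, 983 in xSox6-MO and 4453 in xMLTK-MO, a difference of 9.92-fold between xMLTK-MO and CoMO and of 2.19-fold between xSox6-MO and CoMO. The other probe set lay between 6.44 and 10.8 and was not above the controls on any array, so that the average of both gave a log2 difference of 2.03 in xMLTK-MO. This bright probe set had the same order of arrays as the 5 genes.

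Carboxypeptidase A1, which trims proteins from the carboxyl end, is encoded by cpa1.L. Its intensity was 20.7 in CoMO, 59.0 in xMLTK-MO and 13.5 in xSox6-MO, above the controls in xMLTK-MO alone, where it was at least 2.53-fold over CoMO and at least 2.80-fold over xSox6-MO. The serpin gene serpini2.L, whose human counterpart is known from the pancreas, had 13.4 in CoMO, 37.8 in xSox6-MO and 89.3 in xMLTK-MO. It was at least 3.84-fold higher in xMLTK-MO and at least 1.62-fold higher in xSox6-MO than in CoMO, in the same order of arrays as the 5 genes.

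Several pancreatic enzyme genes above the controls were nearly level. The trypsinogen gene prss1.L had intensities of 33.4 in CoMO, 33.5 in xMLTK-MO and 32.7 in xSox6-MO, and the lipase-related gene pnliprp1.S had 34.0, 35.4 and 34.9. On the log2 scale prss1.L lay only 0.36 to 0.64 above the highest control, and pnliprp1.S 0.44 to 0.73. So close to the controls, level values do not show that these genes were unchanged. A further trypsinogen gene, prss2.L, had 152 in CoMO, 158 in xMLTK-MO and 94.6 in xSox6-MO, so its xSox6-MO array was the dim one. The nuclease gene dnase1 had a log2 difference of 0.31 in xMLTK-MO and 0.02 in xSox6-MO, as an average of 2 probe sets. Of these, 1 was not above the controls on any array, and the other differed by 0.37 and 0.16. Of the 9 genes, 5 had the order CoMO, xSox6-MO, xMLTK-MO, beside 15.7% of the 7258 genes, which passed a different filter. This count takes steps of any size, among them those of pnliprp1.S and dnase1, so nothing is read from it.

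**Figure D3:**
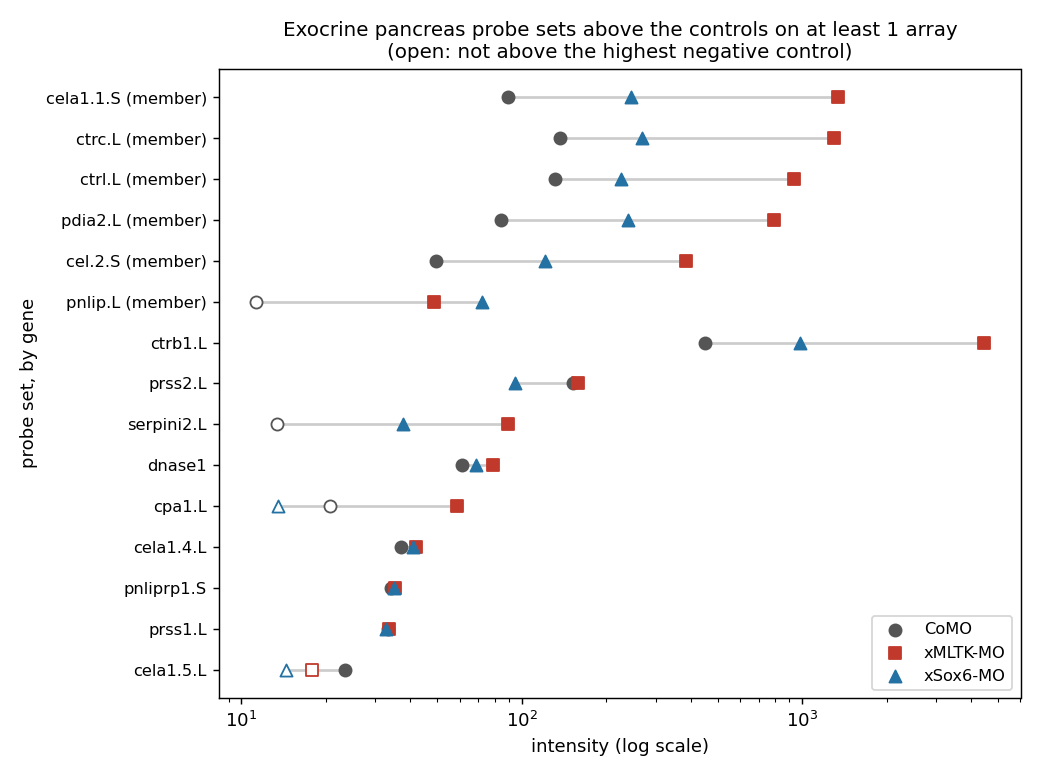
Intensity on a logarithmic axis (horizontal) of every exocrine pancreas probe set above the highest negative control on at least 1 array (vertical axis, by gene, with the 6 genes marked as members at the top), 1 point per array, open where not above that control. The ctrb1.L probe set runs from 449 in CoMO to 4453 in xMLTK-MO, while prss1.L and pnliprp1.S have their 3 points nearly on top of each other.

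The copies of 2 of the genes were mostly not above the controls. The elastase 1 gene has tandem copies, and 4 other copies were measured by 6 probe sets, of which 2 were above the controls on at least 1 array. The homeolog cela1.1.L lay between 9.45 and 11.1 on the 3 arrays. One probe set of cela1.4.L had 37.0 in CoMO, 41.9 in xMLTK-MO and 40.8 in xSox6-MO, and cela1.5.L was above the controls in CoMO alone, at 23.5 against 17.8 in xMLTK-MO and 14.4 in xSox6-MO. All 3 other copies of the bile salt-activated lipase gene, cel.1.L, cel.1.S and cel.2.L, were not above the controls on any array, and cel.1.S is the next protein-coding gene to cel.2.S in the RefSeq annotation. Near-identical copies can share probes, so which copy gave a signal is uncertain.

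The genes ctrl.L, ctrb2.L and ctrb1.L lie close together in the RefSeq annotation. Within 3 protein-coding genes of ctrl.L lies ctrb2.L, and within 3 of ctrb2.L lies ctrb1.L. ctrb2.L was not above the controls on any array, with 7.38 in CoMO, 10.0 in xMLTK-MO and 7.88 in xSox6-MO. cela2a.L, within 2 genes of ctrc.L, was not above them either.

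The disulfide isomerase pdia2.L was set beside the rest of its family. Of 16 other disulfide isomerase genes above the controls, 0 were at least 2-fold higher in xMLTK-MO than in CoMO and 1, pdia4.L, at least 2-fold lower, against 0.876% of 9822 genes lower. Their median log2 difference was -0.18, and 14 of the 16 were lower, 11 when centred on the hybridisation controls and 6 when centred on the poly-A controls. For xSox6-MO the median was -0.10 with 14 of 16 lower, 7 and 4 under the same centrings. In the whole list of 54 disulfide isomerase and secretory pathway genes above the controls, pdia2.L was the 1 gene at least 2-fold higher on either morphant array, against 1.57% of all genes in xMLTK-MO and 1.19% in xSox6-MO. At least 2-fold lower in xMLTK-MO were 4 of the 54, creld2.S, hsp90b1.L, hsp90b1.S and pdia4.L, against 0.876% of all genes, and 2 and 0 when centred on the hybridisation and the poly-A controls. Of the 54, 47 were lower in xMLTK-MO by any amount, 40 and 22 under the same centrings. In xSox6-MO 43 of the 54 were lower, 31 and 15 under those centrings, and 0 at least 2-fold lower, where 1.11% of all genes were. Over all genes and without centring, 47.0% of 9822 were higher by any amount in xMLTK-MO than in CoMO, and 47.8% of 9899 in xSox6-MO.

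Other genes of that list were bright and near level or lower. The translocon genes ssr2.S and sec61b.L had intensities of 9880 and 7914 in CoMO, 8752 and 6938 in xMLTK-MO, and 8587 and 6649 in xSox6-MO. The isomerase gene pdia3.S had 6147, 5265 and 5666 in the same order of arrays. The largest differences in the list after pdia2.L were those of the chaperone gene hsp90b1.S, with 2887, 1336 and 1511, and creld2.S, a gene known from endoplasmic reticulum stress, with 146, 66.8 and 73.3.

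Transcription factors of the pancreas were next. Of 14 such genes above the controls, 2 were at least 2-fold higher in xMLTK-MO than in CoMO (background 1.57%), and 0 in xSox6-MO (background 1.19%). The median log2 difference was 0.40 in xMLTK-MO and 0.12 in xSox6-MO. With the brightest probe set of each gene in place of the average, the counts were 3 and 1 and the medians 0.65 and 0.19. Ptf1a, which drives the acinar fate, had an intensity of 33.6 in CoMO, 48.8 in xSox6-MO and 89.7 in xMLTK-MO, the same order of arrays as in the 5 enzyme genes. Which cells of the bulk heads gave the ptf1a signal was not tested. GATA factors act in the foregut and heart, and gata6.L had 97.8 in CoMO, 189 in xSox6-MO and 227 in xMLTK-MO. Its homeolog gata6.S has 1 probe set above the controls, with 117 in CoMO, 228 in xSox6-MO and 307 in xMLTK-MO, which is 2.63-fold over CoMO in xMLTK-MO and 1.95-fold in xSox6-MO. The other probe set of gata6.S was not above the controls on any array, so that the average of both gave log2 differences of 0.96 and 0.52.

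Further factors of the early pancreas and foregut were less than 2-fold higher as averages. mnx1.L, a gene of the early dorsal pancreas that is also known from motor neurons, had 27.7 in CoMO, 32.4 in xSox6-MO and 53.5 in xMLTK-MO. As averages of 2 probe sets, log2 differences in xMLTK-MO and xSox6-MO were 0.59 and 0.42 for gata4.L, 0.48 and 0.43 for gata4.S, 0.46 and 0.57 for the foregut gene hhex.L, 0.34 and 0.01 for the acinar regulator nr5a2.S, and 0.25 and -0.03 for foxa2.L. The 1 probe set of hhex.L above the controls had 27.5 in CoMO, 50.8 in xMLTK-MO and 55.3 in xSox6-MO, which is 2.01-fold over CoMO in xSox6-MO. The averages of gata4.L, gata4.S and nr5a2.S also held a probe set not above the controls on any array, which lowers them. In xMLTK-MO and xSox6-MO their probe sets above the controls differed by 0.92 and 0.69 (gata4.L), 0.82 and 0.85 (gata4.S), and 0.48 and 0.13 (nr5a2.S). Broadly used factors were nearly level or lower, with -0.08 and -0.30 for foxa1.L, -0.09 and -0.40 for foxa1.S, -0.02 and -0.12 for prox1.L, -0.04 and -0.12 for the Notch partner rbpj.S and -0.25 and -0.23 for the secretory regulator xbp1.L. Centring on the poly-A controls turns the sign of all these negative values.

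Genes of neighbouring organs were set beside the enzyme genes. The stomach and gut list had 12 genes above the controls in CoMO or xMLTK-MO, of which 6 were at least 2-fold higher in xMLTK-MO (5 with values raised to the controls) and 0 lower, against 1.57% and 0.876% of all genes. Of the 6, atp4a.S and atp4b.L were not above the controls in CoMO, so they entered this pair only through xMLTK-MO. The median log2 difference of the 12 was 0.91, or 0.41 with values raised to the controls. In xSox6-MO 3 of 11 were at least 2-fold higher, against 1.19%, and the median was 0.10. Of these 3, atp4a.S entered that pair only through xSox6-MO. The gastric proton pump gene atp4a.S had an intensity of 10.2 in CoMO, 117 in xSox6-MO and 385 in xMLTK-MO, at least 16.5-fold over CoMO in xMLTK-MO. The stomach protease gene ctse.S had 34.1 in CoMO, 76.8 in xSox6-MO and 214 in xMLTK-MO, so both genes had the order of arrays seen in the 5 enzyme genes.

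The brightest genes of that list, agr2.L, agr2.S and lgals4.2.L, took other orders, and agr2 is also known from the cement gland of the head. They had intensities of 3919, 3829 and 1707 in CoMO, 2729, 2713 and 2071 in xMLTK-MO, and 3787, 3016 and 1293 in xSox6-MO. Summed over the stomach and gut markers, 12 genes of 8 of 10 markers, the intensity was 502 in CoMO, 2443 in xMLTK-MO and 1170 in xSox6-MO. The markers cdx1, cdx2 and apoa4, of the intestine, were not above the controls on any array. Some other genes of the list, picked after their values were seen, were above them on every array and brightest in xMLTK-MO. The fatty acid-binding protein gene fabp2.L had 126 in CoMO, 317 in xMLTK-MO and 104 in xSox6-MO, and the galectin gene lgals4.1.L had 181, 554 and 220. The villin gene vil1.S, of the brush border, has 1 probe set above the controls, with 62.7, 105 and 54.4 in that order of arrays. From the same list anpep.L was nearly level, with 90.5, 98.0 and 97.1. The genes fabp2.S, lct.1.L, lct.2.L, mep1a.L and tmprss15.L were not above the controls on any array. The part of stomach or gut tissue in the enzyme differences was not tested.

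Endocrine pancreas genes were higher in the insulin copies. Of 17 genes above the controls, ins.L and ins.S were at least 2-fold higher in both morphants (background 1.57% in xMLTK-MO and 1.19% in xSox6-MO), with ins.S at 11.4 in CoMO, 128 in xSox6-MO and 245 in xMLTK-MO and ins.L at 12.3, 79.4 and 175. Neither copy was above the controls in CoMO, so both entered only through the morphant arrays, and their folds are lower bounds. Over CoMO, ins.S was at least 10.5-fold higher in xMLTK-MO and 5.49-fold in xSox6-MO, and ins.L at least 7.54-fold and 3.41-fold. The median of the list was 0.11 in xMLTK-MO and -0.02 in xSox6-MO, or 0.17 in xSox6-MO when centred on the hybridisation controls. By the average over probe sets, its brightest genes were neurod1.S, scg2.L and the somatostatin gene sst.1.L, which neurons and the pituitary also use. neurod1.S had 674 in CoMO, 806 in xMLTK-MO and 833 in xSox6-MO, scg2.L had 764, 805 and 664, and sst.1.L had 544, 588 and 497. A gene with a dim probe set ranks lower by this rule, and 1 probe set of such a gene reached 1025 in CoMO. The glucagon gene gcg.L was not above the controls on any array.

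Liver genes as a list had medians close to the CoMO level in the deposited intensities, though these medians depended on the scaling. Of 27 liver genes above the controls, 0 were at least 2-fold higher in xMLTK-MO than in CoMO and 2 were lower, the tyrosine breakdown genes tat.S and hpd.L, against 1.57% and 0.876% of all genes, and the median was 0.06. In xSox6-MO the median over 28 genes was -0.15, or 0.03 when centred on the hybridisation controls. There 1 gene, fga.L, was at least 2-fold higher (0 with values raised to the controls) and 1, tat.S, at least 2-fold lower, against 1.19% and 1.11% of all genes. Centring on the poly-A controls, which adds 0.26 and 0.48 to every difference, made the medians 0.32 in xMLTK-MO and 0.33 in xSox6-MO. Between the morphants 19 of 27 were higher in xMLTK-MO and 8 lower, with a median of 0.22, and 13 and 14 when centred on the poly-A controls. Of all 9853 genes in that pair, 50.6% were higher in xMLTK-MO without centring. At least 2-fold higher in that pair was 1, apoa1.L (0 under either centring), and 0 were lower, against 0.619% and 0.284% of 9853 genes. tat.S had 69.9 in CoMO, 14.6 in xMLTK-MO and 18.8 in xSox6-MO, and hpd.L 427, 173 and 249. Its brightest genes were rbp4.S with 8748, 8627 and 7922, rbp4.L with 6019, 6475 and 6128, and ambp.L with 3308, 4594 and 3587. Summed over 12 genes of the liver markers, the intensity was 13041 in CoMO, 12611 in xMLTK-MO and 10591 in xSox6-MO.

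Head markers were then set beside these lists. Any cut head would show them, so they do not tell how much tissue from behind the head was included. Of 15 genes of 9 of 10 head markers, 14 were above the controls on at least 1 array, and their summed intensity was 15001 in CoMO, 11916 in xMLTK-MO and 11123 in xSox6-MO. The brightest genes of the head list were col2a1.L with 6050, 4802 and 5409, crybb1.L with 2984, 2402 and 1888, and cryba1.L with 3049, 2689 and 1542 in that order of arrays. Its largest differences were those of cryaa.S with 342, 237 and 80.3 and sag.S with 1291, 935 and 489. Of 21 genes of the head list above the controls, 5 had xSox6-MO at least 2-fold below CoMO, the lens gene cryaa.S and the photoreceptor genes gnat1.L, gnat1.S, sag.L and sag.S, against 1.11% of all genes. The count was 4 when centred on the hybridisation controls and 1 when centred on the poly-A controls. None of the 21 was at least 2-fold higher or lower in xMLTK-MO, against 1.57% and 0.876% of all genes. By the same measure 15 genes of 10 of 11 exocrine pancreas markers, 2 of them from the 6 described here, summed to 264 in CoMO, 847 in xMLTK-MO and 413 in xSox6-MO, or 203, 414 and 219 without those 2. Each gene entered the sums as the log2 average of its probe sets, which lowers ctrb1.L. Its bright probe set alone had 449, 4453 and 983 in that order, more than the whole exocrine sum on each array. Of the exocrine pancreas markers, cpb1, cela2a, cela3b, amy2a and pnliprp2 were not above the controls on any array. The part of the amount of tissue sampled in any of these differences was not tested.

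**Figure D4:**
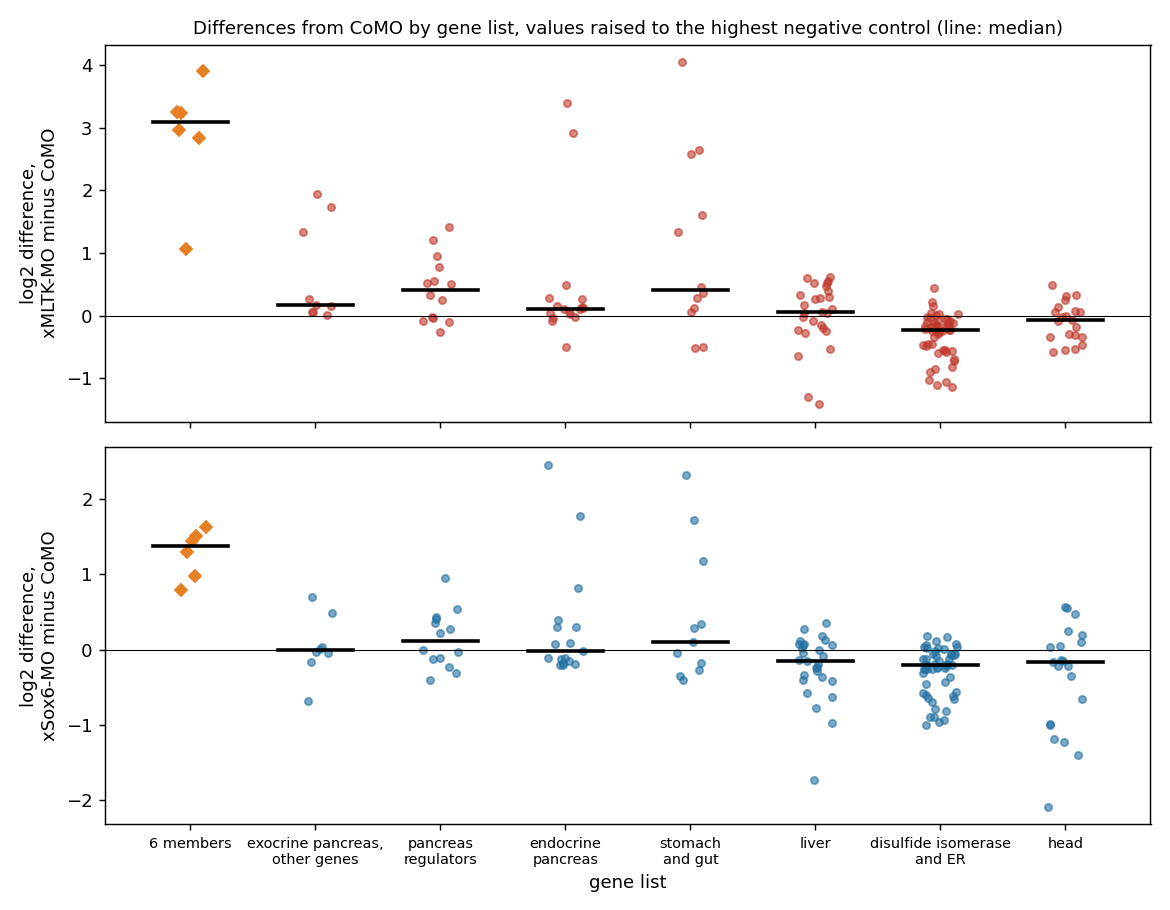
Log2 difference from CoMO (vertical axes) of xMLTK-MO (upper panel) and xSox6-MO (lower panel) for the 6 genes (diamonds) and the other genes of each list (circles, genes above the controls on at least 1 array of the pair), with values raised to the highest negative control and a line at the median. The medians of the lists stay below 1 in both panels. In the upper panel the exocrine, endocrine, and stomach and gut lists hold a few genes far above their medians. In the lower panel the endocrine and the stomach and gut lists do.

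The genes whose pair of differences from CoMO was most like that of each enzyme gene were named by their distance on the log2 scale, over the 3 arrays and the genes above the controls on at least 1 of them. Each gene was ranked by the average of its probe sets, so ctrb1.L entered with a probe set not above the controls on any array. Its bright probe set, not ranked alone, differed from CoMO by 3.31 in xMLTK-MO and 1.13 in xSox6-MO, against 3.25 and 0.98 for ctrc.L. ctse.S, above the controls on every array, was the nearest to ctrc.L, at 0.63, and to ctrl.L, at 0.42, where fos.S and clu.L followed at 0.60 and 0.65. Its distance was 0.34 to cel.2.S, 0.67 to pdia2.L and 1.29 to cela1.1.S. On the measured values serpini2.L was nearer than ctse.S to these last 3 genes, and ins.L and the angiopoietin gene angpt4.S were also among the nearest, but the differences of serpini2.L, ins.L and angpt4.S are bounds because none of the 3 was above the controls in CoMO. With values raised to the controls, which was tried after seeing the data, ctse.S stayed the nearest to ctrc.L and ctrl.L and became the nearest to cel.2.S. ins.L was then the nearest to pdia2.L, at 0.41, and atp4a.S to cela1.1.S, at 0.89, while serpini2.L was not among the first 3 for any of the 6. For pnlip.L, whose own differences are lower bounds, the measured values gave phyhdlb.L, satpb.L and xepsin.S, and the raised values gave myog.S, ankrd2.L and rrn3.L, so the names depended on how its CoMO value below the controls was treated. Both differences of a gene share the CoMO array, so an error there moves them together.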

How the data were processed

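Per the submitters' processing notes the deposited intensities were made with RMA, with GeneChip operating Software 1.4 and GeneSpring GX 11.0.2 named in the series' design text. RMA removes background, quantile-normalises arrays and combines the probes into 1 value per probe set. The values are linear, and log2 was taken here with no offset. cRNA was made from 150 ng of total RNA, per the labels' protocols. No detection calls or scans were used here.

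The platform annotation gave a single gene symbol for 15505 of 32635 probe sets, and symbols were matched by gene identifier to RefSeq genes (Xenopus_laevis_v10.1), which served for names and gene order only. Log2 values were averaged over the probe sets of each gene, and differences were taken with Python 3.11 and pandas 2.3.3. List members were counted where a probe set was above the highest negative control on at least 1 array of the pair. The code of the averaging was checked on simulated data without noise, in which all probe sets of a changed gene moved alike. That check cannot show what averaging does where 1 probe set is bright and another is not above the controls.

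The genes, lists and comparisons were chosen with earlier results of these data known. Genes were named by a rule: the 6 genes and their copies, listed exocrine genes and regulators above the controls, and of the other lists the 3 brightest genes and the 2 of largest difference. For each of the 6, the 3 nearest genes were named too. Other genes named beside a count (such as pdia4.L, hsp90b1.L, fga.L, apoa1.L, fabp2.L, lgals4.1.L, vil1.S, anpep.L, gnat1.L, gnat1.S, sag.L, gcg.L and those not above the controls) were chosen after their values were seen.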

Additional observations from a re-analysis of the deposited data

Results flagged for a closer look

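Probe sets without a single gene symbol were not used in any comparison. Of 17044 of them, 4 were at least as much higher in xMLTK-MO than in CoMO as ctrl.L, at a log2 difference of 2.83, with values raised to the controls. Their differences ran from 3.42 to 4.38, and all 4 had the order CoMO, xSox6-MO, xMLTK-MO. Their genes are not named here. Among probe sets with 1 symbol, 15 reached the same difference.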

How the results depend on the processing

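Alternatives gave 258 values for 30 results, and 215 stayed within the tolerance, for a difference the robust spread of all genes in that comparison (0.26, 0.28 and 0.22 on the log2 scale) and for a count a factor of 1.5. All 144 alternative values of the 6 genes kept their sign, but some of them could not move. Each of the 6 has 1 probe set, so the brightest probe set, or probe sets above the controls alone, returned the main value. Raising values to the controls left the 5 genes above them on every array as they were. The 215 also hold these fixed values, so neither count measures how firm the differences are. No paired analysis was possible because each group had 1 array, and no replicate could be left out.

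Centred on the poly-A controls, log2 differences of xMLTK-MO from CoMO became 4.17 for cela1.1.S, 3.51 for ctrc.L, 3.09 for ctrl.L, 3.22 for cel.2.S, 2.37 for pnlip.L and 3.49 for pdia2.L, and those of xSox6-MO 1.92, 1.46, 1.27, 1.78, 3.16 and 1.98. The medians of the other exocrine genes became 0.55 and 0.50, and 2 of them were 2-fold higher in xSox6-MO. With values raised to the controls pnlip.L differed from CoMO by 1.06 (xMLTK-MO) and 1.63 (xSox6-MO), and with 16 added to each intensity at 1.24 and 1.69, with cel.2.S at 2.62 in xMLTK-MO. Both settings took the count of other exocrine genes 2-fold higher in xSox6-MO from 1 to 0, and the brightest probe set, or probe sets above the controls alone (chosen after seeing the data), took it to 2. Without a filter the median of the other exocrine genes between the morphants went from 0.52 to 0.22.

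Counts of all genes past 2-fold, higher and lower, became 199 and 21 in xMLTK-MO, 416 and 20 in xSox6-MO, and 19 and 41 between the morphants when centred on the poly-A controls. Centred on the hybridisation controls they were 122 and 48 in xSox6-MO. Without the level filter they were 158 and 87 in xMLTK-MO, 64 and 28 between the morphants, and 120 higher in xSox6-MO. Over genes above the controls they were 154 and 86, 61 and 28, and 118 higher. The centring shifts every value of an array alike, and the filters test more genes. The number of arrays, and for pnlip.L its closeness to the controls, limit the precision.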
